A study of Mus musculus with 9 samples.

Results

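The BCL2 family decides whether a stressed cell keeps its mitochondria intact or releases cytochrome c from them and activates caspases. Anti-apoptotic members bind and hold in check the effectors that form pores in the outer mitochondrial membrane, and BH3-only members bind the anti-apoptotic ones or activate the effectors directly. In sensory neurons the family is known as a gate between survival and death after loss of trophic support or injury to the axon, and the stress kinase cascade through DLK and JNK raises BH3-only genes in several kinds of neuron.

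Messenger RNA of 10 genes of this family was followed in the dorsal root ganglia (DRG) of mice after nerve injury: the anti-apoptotic Bcl2, Bcl2l1, Bcl2l2 and Mcl1, the effectors Bax and Bak1, and the BH3-only Bcl2l11, Bbc3, Hrk and Bid. The genes are members by their known role, with no value in the rule. The list was chosen with earlier results of these data known. Their probes were found by the gene name, an older symbol or the RefSeq record that the scanner files give. They are 10 of the 27670 gene names on the array and have 19 of its 41174 probes. Of these 19, 17 passed the filter on dim probes, as did 31186 probes of the whole array.

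The samples were L3 and L4 DRG of adult mice, 4 uninjured and 5 from ganglia whose sciatic nerve had been cut 3 days before. All 9 samples of both groups carry the genotype labels cre.neg and jun.wt, that is no Cre and wild-type Jun. The labels and methods give 3 days, whereas the running text of the study gives a shorter time. Strain, number of animals and pooling are not given, and nothing states that the samples came from separate animals, so the p-values measure only the spread between these samples. Whether the uninjured ganglia came from the uncut side of the injured mice is not stated either, so the groups may share animals.

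Each sample was labelled with Cy5 and hybridised to an Agilent array together with a universal mouse reference RNA in Cy3, with no dye swap. Values are log2(Cy5/Cy3), so a positive value means more signal in the DRG sample than in the reference, and a value is read between arrays for 1 probe, never between probes. In bulk tissue, fewer cells of a type and less RNA per cell cannot be told apart. The median Cy5 signal lay between 200 and 231 on uninjured and between 156 and 238 on injured arrays. Atf3, the transcription factor that marks axotomised neurons, lay between -1.09 and -0.90 on uninjured and between 4.03 and 4.25 on injured arrays, as the labels imply. The list of 10 neuronal markers had a mean log2 ratio between 5.61 and 5.82 on uninjured and between 5.49 and 5.93 on injured arrays, so the tissue carried its defining transcripts in both groups. Injured 2 had the highest red blood cell markers (mean 4.25), and injured 2 and 4 carried muscle markers (means 1.17 and 2.67, all other arrays at -0.64 or below). Of the 3 slides, 1 held 3 uninjured arrays, 1 held uninjured 1 with injured 1, 2 and 5, and 1 held injured 3 and 4, so slide and injury overlap in large part.

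After sciatic nerve transection the family moved in both directions. Bcl2 was lower on all 3 of its probes, by up to 1.78-fold, and Bid and 1 of 2 probes of Bcl2l2 were lower too. Mcl1 was higher on both probes, and Bak1 (1 of 2 probes) and Bbc3 were higher by about 1.3-fold. Bcl2l1, Bax and Bcl2l11 did not pass the test, and Hrk was not above background. Limma's moderated test with Benjamini-Hochberg adjustment over all probes called 9 of the 17 tested probes at an adjusted p under 0.05, which is 52.9% against 23.5% of all probes tested. Of these, 4 were higher (10.5% of all probes were) and 5 were lower (13% of all probes were). The injured and uninjured arrays did not overlap on 7 of the 17 probes, against 22.6% of all probes, 3 of them higher (10.1% of all) and 4 lower (12.5% of all). Probes of 1 gene share their target and are not independent. The brightest probe of a gene is the tested one with the highest mean log2 signal of both channels over the 9 arrays. Counted once per gene by that probe, there were 3 genes higher, 3 lower and 3 not called of 9. Of the 20898 genes tested, 24.9% were called, 11.2% higher and 13.6% lower. The members were chosen with earlier results of these data known, so these shares are a description. The median difference over the 17 probes was -0.02 on the log2 scale, beside -0.004 over all probes. With each array centred on its median in place of loess, 2 of the 9 calls held, both of Bcl2. Those 2 of 17 member probes are a share close to that of all probes, 3521 of 31186 in that fit. Mcl1 (adjusted p = 0.239 and 0.0686 by limma), Bak1 (0.0797), Bbc3 (0.249) and Bid (0.0686) kept their direction without passing the threshold. So did Bcl2l2 (0.192) and the third Bcl2 probe (0.0596).

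**Figure D1:**
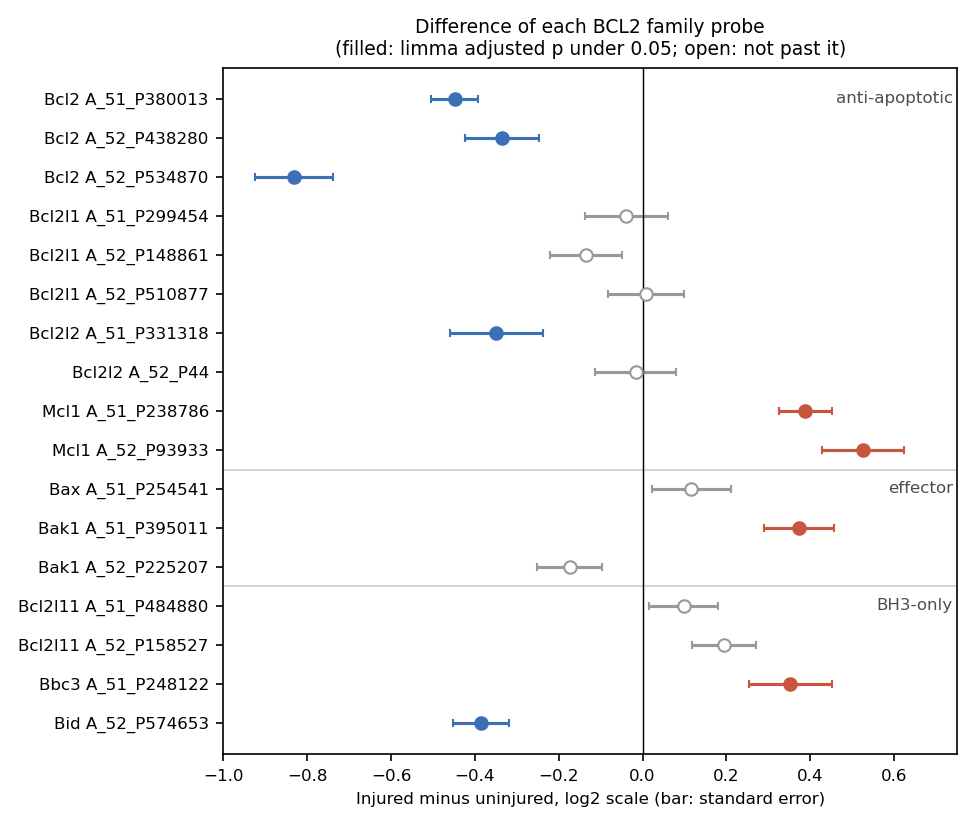
Difference between injured and uninjured arrays on the log2 scale (horizontal axis) for each of the 17 tested probes, named by gene and probe on the vertical axis and grouped by role. Points are differences of means over 4 and 5 arrays, bars are standard errors of the limma fit, and filled points are past an adjusted p of 0.05: all 3 Bcl2 probes lie left of 0 (-0.83 to -0.34) and both Mcl1 probes right of it (0.39 and 0.53), while Bak1 has 1 probe on each side.

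Among the anti-apoptotic members, Bcl2, the founding member of the family and a guardian of the outer mitochondrial membrane, was the most clearly altered. Its brightest probe, A_51_P380013, lies at chr1:106612249-106612308 on the minus strand (build mm7, as the files give it) and is assigned to transcript variant 2. This probe read 1.26, 1.26, 1.36 and 1.30 on uninjured 1 to 4 and 0.79, 0.81, 0.89, 0.81 and 0.93 on injured 1 to 5. Every injured array lay below every uninjured one, with a gap wider than the range of either group. The difference was -0.45 ± 0.06 (SE, n = 4 and 5), a 1.36-fold lower ratio, with an adjusted p of 0.000269 by limma and an exact permutation p of 0.00794, the smallest that the 126 splits of 9 arrays allow.

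A second Bcl2 probe, A_52_P534870, lies 174 kb away at chr1:106438098-106438157 and was printed 10 times on each array. It is assigned to another RefSeq transcript of Bcl2 than the first probe. The mean log2 signal of both channels was close (10.45 beside 10.48 for the first probe). This second probe is called the distal probe below. It read 2.24, 1.98, 2.21 and 1.97 on uninjured 1 to 4 and 1.34, 1.26, 1.39, 1.33 and 1.01 on injured 1 to 5. The groups were again fully apart, and the SD of the 10 spots within an array (0.02 to 0.04) was far below the distance between the groups. The difference was -0.83 ± 0.09 (SE), 1.78-fold lower, with an adjusted p of 0.000127 by limma. It was past the threshold under all 16 other settings and without any single array. The third probe, A_52_P438280, lies 1.66 kb from the variant 2 probe and read 1.47, 1.21, 1.35 and 1.15 on uninjured and 0.79, 0.91, 0.98, 1.17 and 0.94 on injured arrays. Here injured 4 reached above uninjured 4, and the difference was -0.34 ± 0.09 (adjusted p = 0.0198 by limma), with adjusted p = 0.0662 without uninjured 1 and 0.0596 without uninjured 3.

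The 3 Bcl2 probes did not fall by the same amount. The distal probe, A_52_P534870, fell further than the variant 2 probe by 0.38 and than A_52_P438280 by 0.50 on the log2 scale, each with an exact permutation p adjusted over the 3 pairs of 0.0238. The variant 2 probe and A_52_P438280 differed by -0.11 (adjusted exact permutation p = 0.302). These comparisons were chosen after the values had been seen. Over the 9 arrays, the genes whose ratios followed the distal Bcl2 probe most closely were Abcg1 (Pearson's r = 0.994), Hecw1 (r = 0.992) and Cachd1 (r = 0.992), all 3 of them also lower in injured arrays. These correlations are a description over arrays that share the contrast of injury.

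Mcl1, a short-lived anti-apoptotic protein whose level follows its mRNA and its turnover, went the other way. Its brightest probe, A_51_P238786 (chr3:95536882-95536941), read -1.21, -1.35, -1.16 and -1.24 on uninjured and -0.88, -0.73, -0.88, -0.86 and -0.90 on injured arrays. All injured values were above all uninjured ones, injured 2 standing apart at the top. The difference was 0.39 ± 0.06 (SE), a 1.31-fold higher ratio, with an adjusted p of 0.00134 by limma and 0.36 (adjusted p = 0.00368) without injured 2. The other Mcl1 probe, A_52_P93933, lies 1.31 kb upstream and read -2.85, -3.17, -2.79 and -2.72 on uninjured and -2.48, -2.16, -2.37, -2.37 and -2.40 on injured arrays. It too separated the groups, by 0.53 ± 0.10 (SE, adjusted p = 0.00307 by limma).

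Bcl2l2, which encodes the anti-apoptotic BCL-W of long-lived neurons, gave a weaker result. Probe A_51_P331318 (chr14:49754681-49754740) read 1.96, 1.65, 1.86 and 1.75 on uninjured and 1.62, 1.58, 1.58, 1.39 and 1.11 on injured arrays. The groups did not overlap, but uninjured 2 and injured 1 were only 0.034 apart. The difference was -0.35 ± 0.11 (SE, adjusted p = 0.0427 by limma), and the call was lost without uninjured 1 (adjusted p = 0.125), 3 (0.105) or 4 (0.0715) or injured 4 (0.0908). It was called under 10 of 18 other settings, and not with an offset of 0 (0.0610), by Agilent's ratio (0.0856), by the authors' values (0.0528), in the Cy5 channel alone (0.0688) or with its probes averaged (0.0632). The second probe, A_52_P44, gave -0.02 ± 0.10 (adjusted p = 0.927), and the difference between the 2 probes was not past the threshold (exact permutation p = 0.222 adjusted over 4 pairs).

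Bcl2l1, which encodes BCL-XL, the main anti-apoptotic protein of adult neurons, was not called on any of its 3 probes. The brightest, A_52_P148861, also printed 10 times, read 0.30, 0.23, 0.29 and 0.53 on uninjured and 0.07, 0.16, 0.08, 0.34 and 0.35 on injured arrays. The ranges overlap, 3 injured arrays lying below all uninjured ones and injured 4 and 5 among them. The difference was -0.14 ± 0.09 (SE, adjusted p = 0.299 by limma), and the other probes gave -0.04 and 0.01 (adjusted p = 0.824 and 0.968). Set against Bcl2 within each array, the change of Bcl2 was lower than that of Bcl2l1 by 0.31 (exact permutation p = 0.0238, adjusted over 5 pairs of members 0.0595), which did not pass the threshold.

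**Figure D2:**
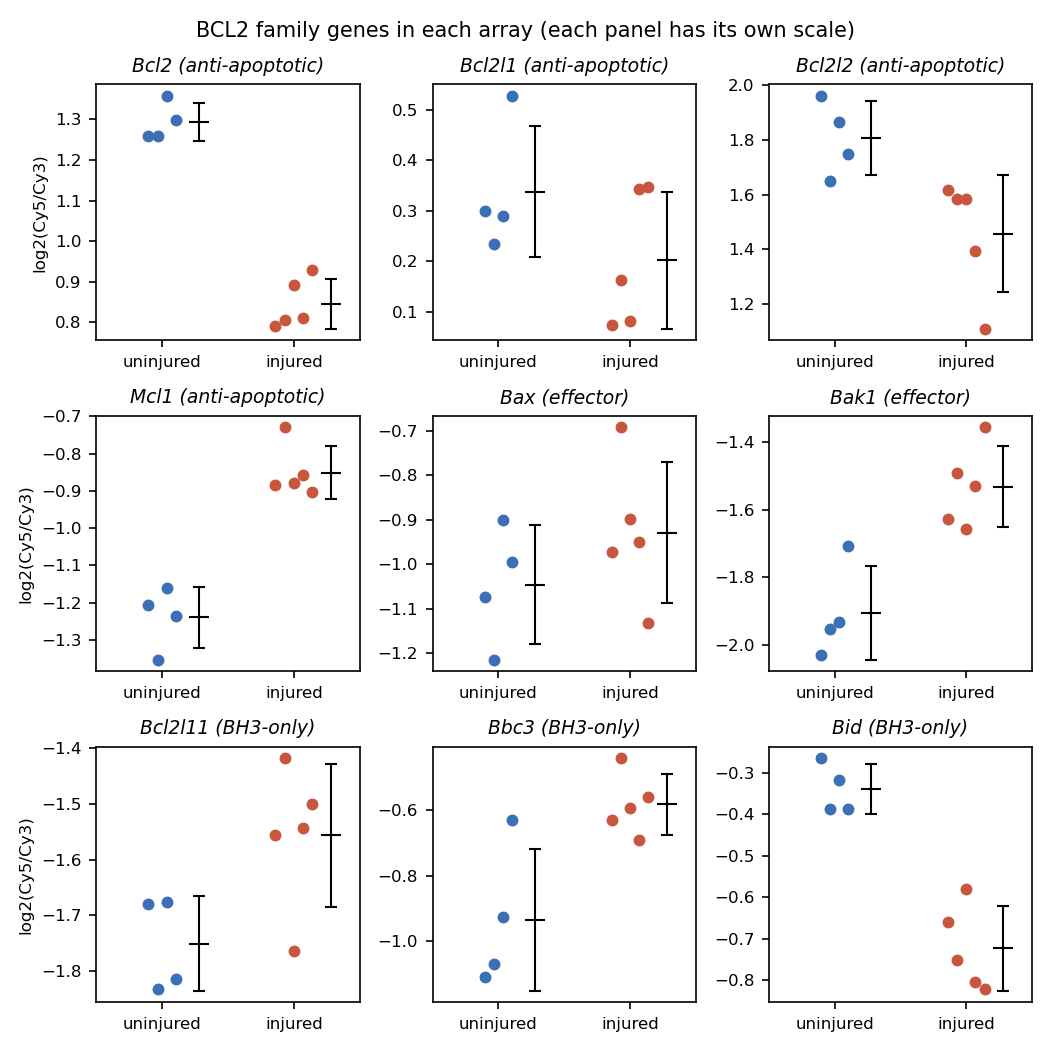
Log2 ratio of Cy5 (DRG sample) to Cy3 (reference) in each of the 4 uninjured (blue) and 5 injured (red) arrays for the brightest tested probe of 9 genes, 1 panel a gene with its own vertical scale. Bars are means ± SD. The groups do not overlap for Bcl2, Bcl2l2, Mcl1, Bak1 and Bid and overlap for Bcl2l1, Bax, Bcl2l11 and Bbc3.

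The effectors differed between genes and, for Bak1, between probes. Bax, which moves from the cytosol to mitochondria to form pores, read -1.07, -1.21, -0.90 and -0.995 on uninjured and -0.97, -0.69, -0.90, -0.95 and -1.13 on injured arrays over its 10 spots. The groups lay over each other, injured 2 being the highest array and uninjured 2 the lowest, and the difference was 0.12 ± 0.09 (SE, adjusted p = 0.417 by limma). Bak1 encodes the effector that sits in the mitochondrial membrane. Its brightest probe, A_51_P395011 (chr17:25204734-25204793), read -2.03, -1.95, -1.93 and -1.71 on uninjured and -1.63, -1.49, -1.66, -1.53 and -1.36 on injured arrays. All injured arrays were above all uninjured ones, uninjured 4 coming within 0.05 of the lowest of them. The difference was 0.37 ± 0.08 (SE), 1.29-fold higher, with an adjusted p of 0.00900 by limma.

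The other Bak1 probe, A_52_P225207, was dimmer and read -0.11, 0.06, -0.08 and 0.12 on uninjured and -0.16, -0.27, -0.24, -0.22 and 0.01 on injured arrays. Here 4 of the 5 injured arrays lay below all uninjured ones and injured 5 among them, with a difference of -0.17 ± 0.08 (SE, adjusted p = 0.134 by limma). The changes of the 2 Bak1 probes differed by 0.55 (exact permutation p = 0.00794, adjusted over 4 pairs of probes 0.0317). The Cy3 reference signal of the dimmer probe was itself lower by 0.28 on injured arrays, which raises its ratio there, and in the Cy5 channel alone the probe gave -0.45 (adjusted p = 0.214 by limma), against -0.03 (0.932) with slide as a fixed block. With the 2 probes averaged Bak1 was not called (0.10, adjusted p = 0.375). Within arrays, the change of Bax and that of Bak1 on its brighter probe differed by -0.26 (exact permutation p = 0.103, adjusted 0.172).

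The 4 BH3-only members did not move together. Bbc3, which encodes PUMA, a p53 and stress target that binds all anti-apoptotic members, has 1 probe, A_51_P248122 (chr7:14080459-14080518). It read -1.11, -1.07, -0.93 and -0.63 on uninjured and -0.63, -0.44, -0.59, -0.69 and -0.56 on injured arrays. Uninjured 4 lay among the injured arrays and the other uninjured arrays below all of them. The difference was 0.35 ± 0.10 (SE), 1.28-fold higher, with an adjusted p of 0.0249 by limma and an exact permutation p of 0.0159. Its adjusted p rose to 0.0812, 0.0688, 0.0578 and 0.0571 without uninjured 1, 2 and 3 and injured 2.

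Bid, whose protein is cut by caspase 8 and then carries a death receptor signal to mitochondria, was lower. Its probe, A_52_P574653 (chr6:120918747-120918806), read -0.26, -0.39, -0.32 and -0.39 on uninjured and -0.66, -0.75, -0.58, -0.81 and -0.82 on injured arrays. No injured array came within 0.19 of an uninjured one. The difference was -0.39 ± 0.07 (SE), 1.31-fold lower, with an adjusted p of 0.00206 by limma.

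Bcl2l11 encodes BIM, a BH3-only protein that FOXO and JUN factors are known to induce in neurons deprived of growth factor. Its brightest probe, A_52_P158527 (chr2:127903168-127903227), read -1.68, -1.83, -1.68 and -1.81 on uninjured and -1.56, -1.42, -1.76, -1.54 and -1.50 on injured arrays. Only injured 3 lay among the uninjured arrays and the other 4 were above all of them. The difference was 0.19 ± 0.08 (SE, adjusted p = 0.0959 by limma, exact permutation p = 0.0397), and without injured 3 it was 0.25 with an adjusted p of 0.0268. Without any other single array the adjusted p by limma lay between 0.116 and 0.204. With median centring the difference was 0.11 (adjusted p = 0.632 by limma). The probe A_51_P484880, above background on 5 arrays, gave 0.10 ± 0.08 (adjusted p = 0.434), and A_52_P348214 was above background in Cy5 on 0 arrays and was not tested. Hrk, which encodes a BH3-only protein of neurons, was not well above background on any of the 9 arrays in either channel, so that its 1 probe gives neither a level nor a change.

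Pairs of BH3-only members were compared within arrays by exact permutation tests. Bid and Bcl2l11 changed differently by -0.58 (exact permutation p = 0.0159, adjusted over the 5 pairs 0.0595) and Bbc3 and Bcl2l11 by 0.16 (adjusted exact permutation p = 0.317). None of the 5 pairs of members passed the threshold after adjustment.

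The slide matters to all of these values. With slide as a fixed block, only uninjured 1 and injured 1, 2 and 5, which share a slide, inform the difference. There, all 9 called probes kept their direction: Bcl2 at -0.42, -0.58 and -1.03, Bcl2l2 at -0.52, Mcl1 at 0.37 and 0.51, Bak1 at 0.54, Bbc3 at 0.57 and Bid at -0.48. The Bcl2 probes A_52_P534870 (adjusted p = 0.00866 by limma) and A_52_P438280 (0.0422) stayed past the threshold and the other 7 did not. The share of higher calls among all called probes was 55.5% in that fit, against 44.6% without the block.

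**Figure D3:**
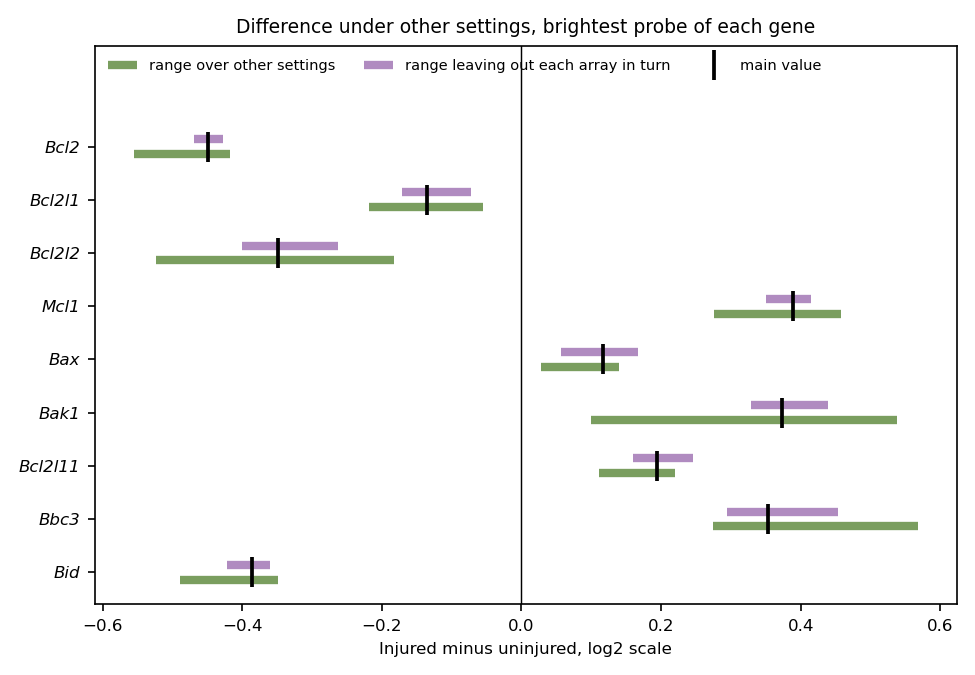
Difference between injured and uninjured arrays on the log2 scale for the brightest probe of each gene (black tick), with its range when each array was left out in turn (purple) and over the other settings of processing, filter and model (green). None of the 9 ranges crosses 0, and the widest is that of Bak1 (0.10 to 0.54), whose low end is the average of its 2 probes.

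Some cell type markers differed between the groups too, where 11.2% of all genes were called higher and 13.6% lower. Of 8 macrophage markers 3 were higher in injured arrays, and the mean log2 ratio of the list ran from -1.18 to -0.52 on uninjured and from -0.69 to 0.09 on injured arrays. Of the 3 neutrophil markers tested 1 was higher (list means 1.76 to 2.85 and 2.83 to 5.32), Elane being too dim to test and Ly6g not matched on the array. Of 5 satellite glia markers 2 were higher, Glul by 0.78 and Slc1a3 by 0.22 (list means 3.67 to 3.88 and 3.85 to 4.15). Of the 10 neuronal markers Ret was higher by 0.28 and Isl1 lower by 0.49. The macrophage and neutrophil lists were highest on injured 2, the array with the highest Mcl1 value. Injured 5 was next on the macrophage list (0.05 beside 0.09 on injured 2). It had the lowest injured value of the brightest Mcl1 probe (-0.90), close to injured 1 (-0.88). On the other Mcl1 probe injured 1 was the lowest of the injured arrays (-2.48 beside -2.40 on injured 5). Mcl1, Bak1 and Bcl2a1b are also expressed by leukocytes, and the part of those cells in the values was not tested. Without both arrays that carried muscle markers, 2 of the 17 members' probes were higher, both of Mcl1, and 4 were lower. Of all 31186 probes, 1832 were called higher and 2204 lower in that fit. Bak1 (adjusted p = 0.0616 by limma), Bbc3 (0.0929) and Bcl2l2 (0.115) were no longer called.

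The rest of the family was read from a list of 15 genes, of which 12 were on the array and 11 were tested. Of these, 1 was higher and 3 were lower, 4 of 11 where 24.9% of all genes were called, with a median difference of -0.01. Pmaip1, which encodes the BH3-only NOXA that binds MCL1 and marks it for degradation, rose from a mean of -2.35 to -0.01, by 2.34 ± 0.24 (SE, adjusted p = 7.42e-05 by limma). This was a larger difference than on any probe of the 10 members. Bcl2l14 fell by 0.92 on the brighter of its 2 probes, both called lower. Bad, a BH3-only protein that growth factor signalling holds inactive, fell by 0.87 on the brighter of 2 probes, while the other (0.18) was not called. Bnip3, a mitochondrial protein known for its induction by low oxygen, fell by 0.49. The leukocyte gene Bcl2a1b gave 0.62 ± 0.22 (adjusted p = 0.0706) on a probe that the files also assign to near-identical copies of the gene.

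**Figure D4:**
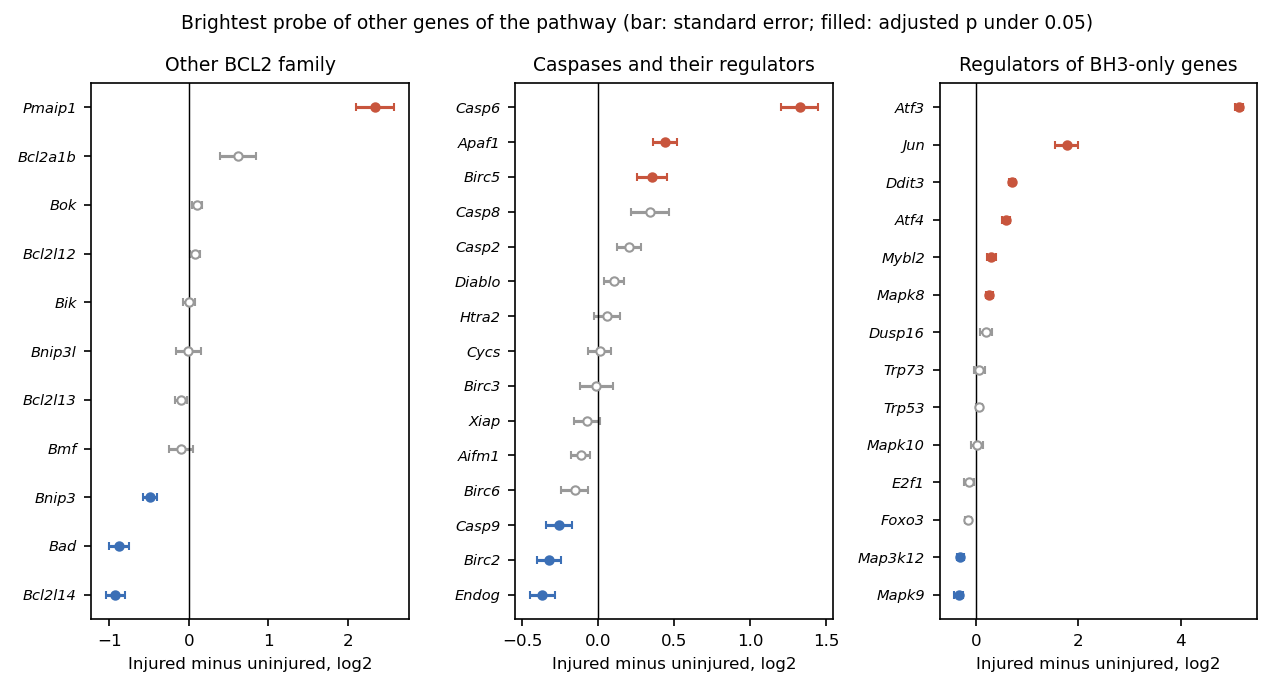
Difference between injured and uninjured arrays on the log2 scale (horizontal axis, a separate scale for each panel) for the brightest tested probe of the other BCL2 family genes, of caspases and their regulators, and of regulators of BH3-only genes. Bars are standard errors, and filled points are past an adjusted p of 0.05: Pmaip1 (2.34), Casp6 (1.32) and Atf3 (5.14) lie farthest to the right of their panels.

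Downstream, a list of 15 caspases, cofactors and inhibitors had 3 genes higher and 3 lower (11.2% and 13.6% of all genes were) and a median difference of 0.01. Casp6, an executioner caspase known for its part in axon degeneration, rose by 1.32 ± 0.12 (adjusted p = 3.78e-05 by limma). Apaf1, the scaffold on which cytochrome c activates caspase 9, rose by 0.44. Birc5, an inhibitor of apoptosis found in dividing cells, rose by 0.36. On the lower side, Endog, a mitochondrial nuclease, fell by 0.37. Birc2, a ubiquitin ligase that restrains cell death, fell by 0.32 on 1 of 2 probes. Casp9, the initiator caspase of the mitochondrial pathway, fell by 0.26 and was only just past the threshold (adjusted p = 0.0497 by limma). Cycs itself gave 0.01 (adjusted p = 0.944). Of 10 partners and turnover factors 1 was higher and 1 lower (11.2% and 13.6% of all genes were), and the other 8 were not called. Tmbim6, a negative regulator of BAX in the endoplasmic reticulum, rose by 0.34. Fbxw7, a ubiquitin ligase subunit for MCL1 and JUN, fell by 0.42.

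Upstream, of 14 known regulators of BH3-only genes 6 were higher and 2 lower (11.2% and 13.6% of all genes were), with a median difference of 0.13. Atf3 rose by 5.14, Jun by 1.77 ± 0.23, and the stress response factors Ddit3 (CHOP) and Atf4 by 0.70 and 0.58. Mybl2 rose by 0.30, and the JNK gene Mapk8 by 0.26 on its brightest probe, the other 3 tested probes not being called higher. Map3k12, which encodes DLK, fell by 0.31 (2 of 3 probes called) and the JNK gene Mapk9 by 0.34 (1 of 3 probes called). The third JNK gene, Mapk10, gave 0.02 on its brightest probe, and 2 of its 3 tested probes were called lower. Foxo3 (-0.16, adjusted p = 0.114) and Trp53 (0.06, adjusted p = 0.582) were not called.

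Short binding motifs of such factors were looked for in the promoters of the members, from 250 bases before to 50 after each start in RefSeq (GRCm38.p6). All 10 genes matched, with 15 windows among the 32851 of the table. Both strands were searched for TGANTCA (AP-1), TGACGTCA (the cAMP response element), TGATGCAA (the composite site of C/EBP and ATF factors) and GTAAACA (the forkhead core). These stand in 7.81%, 1.79%, 0.895% and 3.65% of all windows. The first 3 were in 0 of the 15 windows and the forkhead core in 2, 1 of Bcl2l11 at -227 and 1 of Bbc3 at -167 from the start, the second on the reverse strand. The 250 bases before those starts are shown because they are the only windows with a match, which is given in capitals. Bcl2l11 lies at chr2:128125788-128126037 and Bbc3 at chr7:16310011-16310260, both on the plus strand.
Bcl2l11: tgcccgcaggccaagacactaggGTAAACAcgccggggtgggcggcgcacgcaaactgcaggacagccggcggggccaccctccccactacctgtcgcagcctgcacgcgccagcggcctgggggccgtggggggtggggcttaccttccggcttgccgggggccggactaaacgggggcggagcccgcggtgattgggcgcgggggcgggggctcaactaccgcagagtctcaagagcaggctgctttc
Bbc3: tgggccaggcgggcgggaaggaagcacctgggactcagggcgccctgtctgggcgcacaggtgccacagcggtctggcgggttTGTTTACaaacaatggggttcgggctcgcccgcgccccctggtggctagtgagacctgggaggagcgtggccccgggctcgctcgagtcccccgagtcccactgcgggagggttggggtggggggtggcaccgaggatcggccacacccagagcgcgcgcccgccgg
Both windows are rich in G and C (71.0% and 74.7% over the 300 bases). With 2 of 15 windows matched, nothing is read from the share, and a match of letters is not a bound site, and the lack of one says only that these letters are not in the window.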

How the data were processed

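The deposited scanner files hold, per the file headers, mean spot intensity and median local background intensity in each channel from Agilent Feature Extraction 10.5.1.1, and a log10 ratio that Agilent's software background-corrected and dye-normalized. The authors also deposited log2 ratios of Cy5 over Cy3, which had a slope of 0.986 to 0.995 against the values used here and column medians of 0.02 to 0.024. Coordinates are those in the files, build mm7.

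Starting from the intensities, limma 3.58.1 (R 4.3.3) was used for normexp background correction with an offset of 50 and for loess normalization of each array. Repeated spots were then averaged, and probes were tested if Cy5 was well above background on at least 4 arrays. Spots with a non-uniform local background (20 on injured 2, up to 5 elsewhere) were left out of the background fit, since earlier work on these files showed that they pull it off on 1 injured array. Of 43379 spots outside the 1639 controls, 41174 probes resulted. Current symbols were found through an accession (22951 probes), the symbol itself (6659) or an older symbol (3109), while 8455 probes keep the name printed in the files.

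Injured and uninjured arrays were compared by limma (lmFit and eBayes) with Benjamini-Hochberg adjustment over 31186 probes, and single probes by two-sided exact permutation over 126 splits. The code was checked on simulated data. The members and lists were chosen with earlier results of these data known, and 2 genes of the caspase list are not reported here. All 10 members are named with every array of the brightest probe, and from the other lists the called genes (at most 6 a list by size of difference). Bcl2a1b, Bad's dimmer probe, Cycs, Mybl2, Mapk8, Mapk10, Foxo3, Trp53, Glul, Slc1a3, Ret and Isl1 were named outside that rule after their values were seen. The number of arrays limits the precision. Alternatives were other background corrections and offsets, median centring, Agilent's ratio, the authors' values, the Cy5 channel alone, other filters, slide as a fixed or random block, array weights, the brightest or average probe of a gene, a threshold of 0.01, and leaving out each array. Leaving out flagged spots, and both arrays with muscle markers, was added after the data were seen. Promoter sequences are from RefSeq (GRCm38.p6), and plots were made in matplotlib 3.10.9 (Python 3.11.15).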

Additional observations from a re-analysis of the deposited data

Results flagged for a closer look

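Of 34 groups of arrays tested for an array far from the others of its group, 1 was found. This is not more than the about 1 in 20 that chance gives. The Mcl1 probe A_51_P238786 read -0.73 on injured 2, above the other 4 injured arrays, which lay between -0.90 and -0.86. The same array had the highest macrophage and neutrophil markers, and their part in the value was not tested. Injured 5, with a macrophage mean of 0.05 beside 0.09 on injured 2, read lowest of the injured arrays on this probe (-0.90). On the other Mcl1 probe injured 1 read lowest (-2.48 beside -2.40 on injured 5).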

How the results depend on the processing

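The 9 calls kept their direction under every setting run. The exceptions in direction were 3 probes that were not called. Bcl2l1 A_51_P299454 was 0.0049 with all spots in the background fit and -0.086 to 0.019 leaving out each array. Bcl2l1 A_52_P510877 was -0.048 without background correction, -0.0026 with an offset of 0, -0.037 with median centring, -0.091 by Agilent's ratio, -0.23 with slide as a fixed block, -0.039 without both arrays with muscle markers and -0.060 to 0.065 leaving out each array. Bcl2l2 A_52_P44 was 0.046 with all spots in the background fit, 0.020 by the authors' values, 0.041 and 0.00092 with slide as a fixed and a random block, 0.095 without both arrays with muscle markers and -0.080 to 0.031 leaving out each array.

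Over all probes, limma called 7337, with median centring 3521 (1314 higher, 2207 lower), with slide as a fixed block 1507 (837 and 670), at an adjusted p under 0.01 3952 (1835 and 2117) and without both arrays with muscle markers 4036 (1832 and 2204). Leaving out each array gave 5353 to 7485 calls (2458 to 3330 higher and 2895 to 4161 lower). Of the members' probes, limma called 0 higher and 2 lower with median centring (2 and 7 at an unadjusted p under 0.05) and 0 higher and 2 lower with slide as a fixed block (5 and 5). With median centring the 2 were Bcl2 A_51_P380013 and A_52_P534870. Called lower were 3 with the brightest probe of each gene and 3 at 0.01, and averaging a gene's probes gave 2 higher and 2 lower. Without both arrays with muscle markers 2 were higher. Leaving out each array gave 3 to 5 higher and 3 to 6 lower, with 3 lower without uninjured 1 or uninjured 3. The cause was not tested. Bcl2l11 A_52_P158527 was called with slide as a random block (adjusted p = 0.0303), as was Bak1 A_52_P225207 (0.0322), which was also called without injured 5 (0.0397). The correlation within slides in the random block fit was negative (-0.20), and 10333 of all probes were called in it. With slide as a fixed block these probes had adjusted p = 0.463 and 0.932 by limma. Leaving out each array gave -0.31 to -0.16 for Bax minus Bak1, -0.37 to -0.27 for Bcl2 minus Bcl2l1, 0.091 to 0.30 for Bcl2l1 minus Bcl2l2, 0.076 to 0.28 for Bbc3 minus Bcl2l11 and -0.67 to -0.54 for Bid minus Bcl2l11. Without uninjured 4, Bcl2 minus Bcl2l1, Bbc3 minus Bcl2l11 and Bid minus Bcl2l11 each had an adjusted exact permutation p of 0.0298. This was the lowest value over the arrays left out, and the highest was 0.143, 0.571 and 0.143 in the same order. No paired analysis was possible because neither replicate numbers nor animals are in the labels, although the groups may share animals. Signal over background limits Hrk and 1 Bcl2l11 probe, which were not tested.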
